A study of Mus musculus with 3 samples.

Results

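The genes described here are the numbered members of the tripartite motif (TRIM) family, measured by bulk RNA sequencing in 1 population of leukocytes sorted from mouse lymph nodes. A gene was taken as a member where its symbol in the count table was Trim followed by a number and at most 1 letter. Trim30a, Trim10 and Trim58 were left out. This gave 61 genes of 17857 in the table. The single group, called ckit_pos in the labels, holds 3 libraries, from repeat experiments on cells described as precursors, named replicates 1, 2 and 3 here. Mice of the C57BL/6J strain carried B16F10 melanomas in both thighs, received no treatment, and gave their tumour-draining nodes at day 14. Nodes were pooled, and cells that carried Ly6C and c-kit and lacked CD11c were sorted by flow cytometry. The labels do not say how many mice made up a pool, so the spread between libraries may be in part technical, and no control population was analysed here.

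TRIM proteins are named for a RING finger, 1 or more B-boxes and a coiled coil, in that order from the amino end. The RING finger passes ubiquitin from an E2 enzyme to a target, the coiled coil pairs the chains, and the part that follows chooses the target. In leukocytes the family is best known for sensing and restricting viruses, with members that bind retroviral capsids, act on the RNA sensor RIG-I or detect antibody inside the cell. A smaller branch works in the nucleus as transcriptional corepressors.

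The 3 libraries held 9077195, 13885509 and 13861430 counts. Levels are normalised read counts (CPM, counts scaled to library size with TMM factors), divided by gene length in kilobases (kb) wherever genes are set against each other. Of the sort markers, Kit was read at 1.90, 1.03 and 1.14 CPM per kb in replicates 1, 2 and 3, below Itgax, the gene of the excluded CD11c, at 6.69, 10.7 and 5.96. The Ly6C genes Ly6c1 (11.6, 2.60 and 10.7) and Ly6c2 (14.4, 151 and 51.5) were both read, and Ly6c2 lay above 10 CPM per kb. All 8 T cell markers were called above 10 CPM per kb, of which Cd8a varied most, with 2.77, 168 and 43.2. Summed erythroid markers reached 3682 CPM in replicate 1 against 50.1 and 258 in the others, and summed NK cell markers reached 422 CPM in replicate 2 against 44.9 and 163. Neutrophil markers summed to 651 CPM in replicate 3 against 161 and 64.5 in replicates 1 and 2. Olfactory receptor genes, which leukocytes rarely use, averaged 0.248, 0.0207 and 0.0482 CPM per kb, so background was highest in replicate 1. In such bulk samples, fewer cells of a type and less RNA per cell cannot be told apart.

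The members ranged from 97.9 CPM per kb down to levels near background. Of the 61 members, 37 lay above 1 CPM in edgeR's quasi-likelihood test (adjusted p under 0.05), which is 64.9% of the 57 with enough counts to test, against 68.6% of all 15490 genes tested. Above 10 CPM per kb lay 20 members, against 31.2% of all genes, and below it lay 24, against 37.7%. Each share lay near that of all genes and sets the family apart in no direction. The count below 10 CPM per kb fell to 9 without replicate 3 and to 15 with a stricter filter on low counts, while the count above it ranged from 19 to 21 when each library was left out. The median tested member stood at 3.40, 2.82 and 3.598 CPM per kb in replicates 1, 2 and 3, and the median of all tested genes at 5.36, 5.36 and 5.21. All members together took 0.193%, 0.2497% and 0.214% of the counts.

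**Figure D1:**
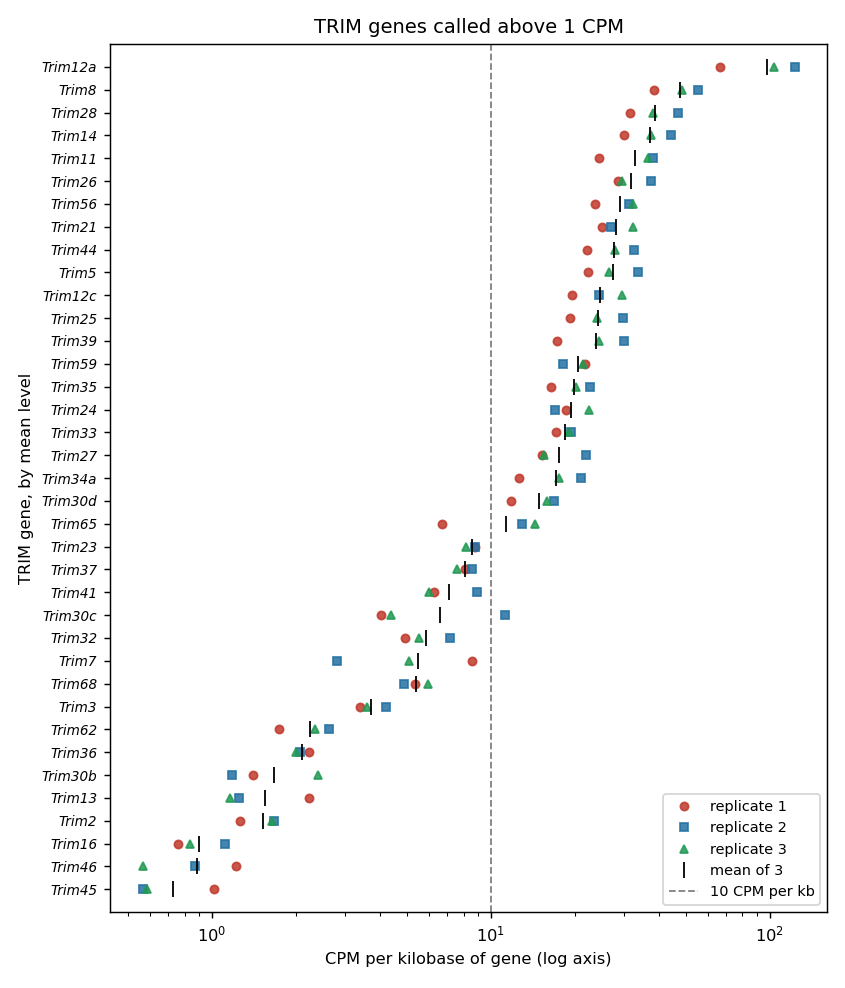
Levels of the 37 TRIM genes called above 1 CPM, in CPM per kb of gene on a log axis, with 1 point per library, a bar for the mean of 3 libraries and a dashed line at 10 CPM per kb. Trim12a stands at the top with 66.5 to 123 CPM per kb of its deposited length, and 20 genes were called above the dashed line.

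The corepressor branch, also called transcriptional intermediary factor 1 (TIF1), carries a PHD finger and a bromodomain. Trim28, which KRAB zinc finger proteins recruit to silence retroelements, was read at 31.5, 47.1 and 38.2 CPM per kb (38.9 ± 7.81, SD, n = 3, edgeR adjusted p = 1.11e-06 against 10 CPM per kb). Trim24, a chromatin reader and coregulator of nuclear receptors, was read at 18.6, 17.1 and 22.5 CPM per kb (19.4 ± 2.79, adjusted p = 2.47e-04). Trim33, which binds SMAD proteins in transforming growth factor beta signalling, was read at 17.1, 19.4 and 19.1 CPM per kb (18.5 ± 1.25, adjusted p = 2.43e-04). Trim28 lay above Trim24 and Trim33 in every library, and the values of those 2 genes overlapped. Trim66, the fourth member, was at 0.307, 0.163 and 0.150 CPM per kb, which edgeR placed below 10 CPM per kb (adjusted p = 0.0178) in the complete data but not without replicate 2 or without replicate 3. The branch thus had 3 genes above 10 CPM per kb and 1 far below them.

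Genes whose products work with Trim28 were well read, with a median of 45.2 CPM per kb. All 9 measured partners lay above 1 CPM, and 7 of 9 lay above 10 CPM per kb, against 68.6% and 31.2% of all tested genes. The nucleosome remodelling subunits Chd3 (103, 136 and 159.6 CPM per kb) and Chd4 (98.0, 158 and 122) were the highest of the 9. Hdac1, a histone deacetylase, was at 9.22, 13.0 and 17.0 CPM per kb, and Cbx3, a heterochromatin protein, at 7.80, 6.05 and 8.72, and neither was separated from 10 CPM per kb. The SMAD genes that Trim33 meets were led by Smad4 with 39.9, 49.7 and 51.5 CPM per kb, and 2 of 3 lay above 10 CPM per kb.

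The highest member of the family per kb belongs to the SPRY genes related to Trim5 and Trim30. Their carboxyl end holds the domain that primate TRIM5 uses to bind retroviral capsids. Of 11 such members, 9 lay above 1 CPM, 6 above 10 CPM per kb and 4 below it, against 68.6%, 31.2% and 37.7% of all tested genes. Their median was 14.9 CPM per kb against 5.50 for all tested genes. Per kb of its deposited length of 1525 bases, Trim12a was the highest of all 61 members, with 66.5, 123 and 104 CPM per kb (97.9 ± 28.9, SD, n = 3, 97.4th percentile, edgeR adjusted p = 3.52e-08). Its GENCODE transcripts hold 5965 stretches of 75 bases, more than that length allows, so its rank rests on the length used. Trim21, a cytosolic receptor for antibody, was read at 25.02, 27.1 and 32.5 CPM per kb (28.2 ± 3.86). Trim5 was read at 22.4, 33.7 and 26.7 CPM per kb (27.6 ± 5.73) and Trim12c at 19.6, 24.5 and 29.7 (24.6 ± 5.03). The libraries of Trim21, Trim5 and Trim12c overlapped with each other, and none reached the lowest library of Trim12a. Trim34a (12.6, 21.2 and 17.6 CPM per kb, adjusted p = 0.00320) and Trim30d (11.9, 16.9 and 15.9, adjusted p = 0.00890) also lay above 10 CPM per kb, Trim30d not without replicate 3.

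The other genes of the same type were not called above 10 CPM per kb. Trim30c was uneven, with 4.06, 11.3 and 4.38 CPM per kb, and was not separated from 10 CPM per kb (edgeR adjusted p = 0.121). Trim68 was read at 5.35, 4.90 and 5.94 CPM per kb, Trim30b at 1.41, 1.184 and 2.41, and Trim6 at 1.13, 0.317 and 0.536. Trim34b, a near copy of Trim34a, was read at 0.275, 0.465 and 0.495 CPM per kb from 4, 10 and 10 counts. These 4 genes lay below 10 CPM per kb, Trim6 not without replicate 3, and Trim34b not without replicate 2, without replicate 3 or with the stricter filter on low counts. How far reads were split between such copies is uncertain. In the GENCODE transcripts, 42.5% of the 75-base stretches of Trim34b and 29.5% of those of Trim34a occur in another gene, as do 20.6% for Trim5, 16.9% for Trim12c and 5.25% for Trim12a. How reads with several matches were counted is not stated in the labels.

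Of these 11 genes, 9 lie together on chromosome 7 between 104218795 and 104507853 (mm10), in the order Trim6, Trim34a, Trim5, Trim12a, Trim34b, Trim12c, Trim30b, Trim30c and Trim30d, and Trim21 and Trim68 lie on the same chromosome between 102557920 and 102687335. Level did not follow position in a simple way. Trim34b, at 0.412 CPM per kb, lies between Trim12a and Trim12c, at 97.9 and 24.6. Neighbours also differed elsewhere in the genome. On chromosome 17, Trim39 (23.95 CPM per kb) and Trim26 (32.0) were high, while Trim15 (0.687), Trim40 (0.277) and Trim31 (0.110) beside them were low. The Trim43 genes on chromosome 9, genes of the early embryo, averaged 0.0380 to 0.215 CPM per kb, and Trim60, Trim61 and Trim75 on chromosome 8 averaged 0.0915 to 0.440.

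**Figure D2:**
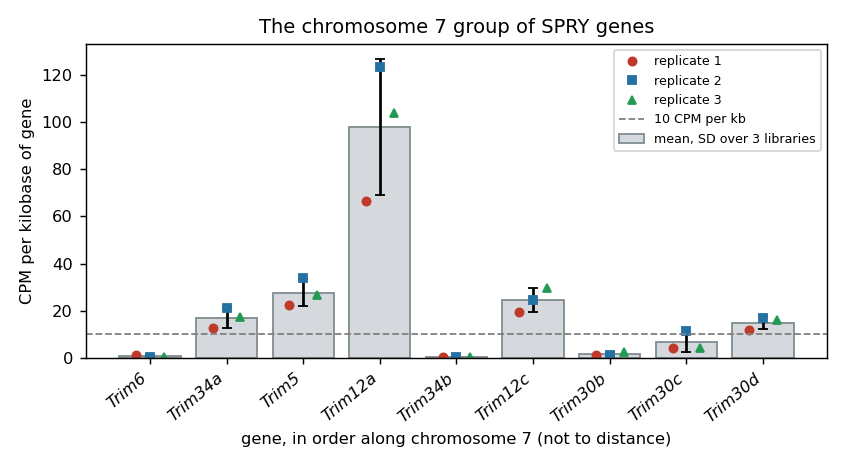
Level of the 9 TRIM genes of the chromosome 7 group in their order along the chromosome, in CPM per kb, with bars for the mean, error bars for the SD over 3 libraries, and a point for each library. Trim12a reaches 123 CPM per kb in replicate 2, while Trim6, Trim34b and Trim30b stay under 3 CPM per kb in every library.

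Many antiviral genes are switched on through the interferon-stimulated response element, so its core, GAAA followed after any 2 bases by GAAA, was searched on both strands of the RefSeq promoter windows (GRCm38.p6, 250 bases before to 50 after a start site). Windows were available for 46 of the 61 members. The letters occurred in 8 of these 46 genes (17.4%), against 3.99% of all 27025 genes with a window. A second motif, TTC followed after any 3 bases by GAA, of the form that STAT dimers bind, occurred in 5 of 46 (10.9%) against 9.55% of all, and the 2 motifs can share letters. Of the 8 genes with the first motif, 6 belong to the Trim5 and Trim30 type, for which all 11 had a window. The matches are printed to let their letters be compared, each in 30 bases read along the gene's own strand with the match in capitals; a match made of TTTC, 2 bases and TTTC is the motif on the opposite strand.
Trim12a, chr7:104315466-104315495, minus strand: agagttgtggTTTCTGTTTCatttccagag
Trim5, chr7:104288136-104288165, minus strand: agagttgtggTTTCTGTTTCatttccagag
Trim12c, chr7:104353359-104353388, minus strand: agagttgtggTTTCTGTTTCatttccagct
Trim30d, chr7:104507871-104507900, minus strand: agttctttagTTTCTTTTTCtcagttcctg
Trim34a, chr7:104244457-104244486, plus strand: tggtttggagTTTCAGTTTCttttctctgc
Trim21, chr7:102565450-102565479, minus strand: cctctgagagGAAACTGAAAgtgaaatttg
Trim26, chr17:36836976-36837005, plus strand: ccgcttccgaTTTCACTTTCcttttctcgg
Trim2, chr3:84212791-84212820, minus strand: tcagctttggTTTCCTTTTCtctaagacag

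Positions are counted from the start site of the window, which need not be the outermost start of the gene: the matches of Trim5, Trim12a, Trim34a, Trim21 and Trim2 lie inside the gene's RefSeq span. The first base of the match lay before the window's start site in Trim12c (position -29), Trim30d (-41), Trim5 (-49) and Trim26 (-160, with a second at -154). It lay after it in Trim12a and Trim34a (10 in each), Trim21 (13, with a second match at 19) and Trim2 (28). The match itself is the same in Trim12a, Trim5 and Trim12c, and the windows of Trim5 and Trim12a share an identical run of 241 bases, so these 3 do not count as independent. Trim12a was read at 97.9 and Trim5 at 27.6 CPM per kb, or 149 and 71.5 CPM before division by length. How reads were split between these copies is uncertain, and the part of the shared run in their levels was not tested. All 8 genes with the motif lay above 1 CPM and 7 lay above 10 CPM per kb, the exception being Trim2. Of the 38 with a window and without the motif, 20 lay above 1 CPM and 8 above 10 CPM per kb. The medians of the 2 sets were 26.1 and 0.806 CPM per kb. Of the 8 genes with the motif, 6 belong to the Trim5 and Trim30 type, a class with a median of 14.9 CPM per kb. Over all tested genes, with or without the motif, 68.6% lay above 1 CPM and 31.2% above 10 CPM per kb. The split by motif was not made over all genes, so a link between motif and level was not tested. A match describes letters only, and binding was not measured.

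Levels of well-known interferon-stimulated genes are given for reference. All 10 measured lay above 1 CPM and 4 lay above 10 CPM per kb, against 68.6% and 31.2% of all tested genes. Rsad2, an antiviral enzyme, was read at 67.7, 2.73 and 8.09 CPM per kb, high in replicate 1 alone. Mx1, an antiviral GTPase, was read at 4.62, 12.6 and 3.94 and Ifi44 at 0.908, 0.956 and 1.88. Of the 10, 2 were highest in replicate 1, 3 in replicate 2 and 5 in replicate 3. Of the 8 TRIM genes with the motif, 6 were highest in replicate 2 and 2 in replicate 3. Among all 29 members with a mean of at least 10 CPM, 72.4% were highest in replicate 2, and among all such genes 48.7%.

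Of the 20 other SPRY genes, 18 could be tested, of which 10 lay above 1 CPM, 6 above 10 CPM per kb and 6 below. Over all tested genes these shares were 68.6%, 31.2% and 37.7%. Trim11 was read at 24.4, 38.2 and 36.6 CPM per kb (33.1 ± 7.55) and Trim26 at 28.7, 37.7 and 29.5 (32.0 ± 4.96). Trim25, the ligase known for activating RIG-I, was read at 19.2, 29.8 and 24.1 CPM per kb (24.3 ± 5.28, SD, n = 3, edgeR adjusted p = 4.30e-05). Trim39, Trim35 and Trim27, a partner of the PML protein, followed at 23.95, 19.8 and 17.6 CPM per kb on average. Trim65, a ligase for the RNA sensor MDA5, was read at 6.72, 13.0 and 14.4 CPM per kb, lowest in replicate 1. It was not separated from 10 CPM per kb (adjusted p = 0.423), and passed without replicate 1. Trim41 (7.07 ± 1.63) and Trim62 (2.24 ± 0.450) lay below 10 CPM per kb, Trim41 by a narrow margin (adjusted p = 0.0478) that was lost without replicate 1 or without replicate 3 and in DESeq2's test.

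The sensor that Trim25 acts on was also present. Ddx58, the gene of RIG-I, was read at 29.9, 38.8 and 36.4 CPM per kb, and Ikbke (61.1, 94.2 and 95.8) and Tbk1 (34.5, 41.4 and 43.3), kinases of the same pathway, stood above it in every library. Of the 8 genes in this list, all lay above 1 CPM and 5 above 10 CPM per kb, against 68.6% and 31.2% of all tested genes. Mavs, the mitochondrial adaptor, was lower at 7.82, 9.46 and 6.67. Rnf135, a second ligase for RIG-I that is not a TRIM protein, was read at 2.16, 2.33 and 2.64 CPM per kb, below Trim25 in every library. Of 10 ubiquitin E2 genes that can serve RING ligases, 9 lay above 1 CPM and 4 above 10 CPM per kb, beside the same shares of all genes. The E2 genes were led by Ube2d3 (73.6, 73.0 and 87.8) and Ube2d1 (18.5, 24.5 and 28.6), with Ube2v2 (1.74, 1.48 and 1.97) and Ube2e2 (2.54, 0.727 and 0.995) the lowest.

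Members classed here as RING genes without a C-terminal domain divided sharply. Trim8, a regulator of NF-kappaB and STAT signalling, was the second highest member with 38.6, 55.6 and 48.6 CPM per kb (47.6 ± 8.54, SD, n = 3, edgeR adjusted p = 2.93e-07). Trim56, which takes part in responses to foreign nucleic acid, was read at 23.7, 31.3 and 32.3 CPM per kb (29.1 ± 4.67). The other 4 of the 6, Trim61, Trim40, Trim31 and Trim52, averaged 0.0457 to 0.440 CPM per kb. Of the members that lack a RING finger, Trim14, an adaptor at mitochondria in RIG-I signalling, was read at 30.03, 44.4 and 37.6 CPM per kb (37.3 ± 7.17) and Trim44 at 22.1, 32.7 and 28.0 (27.6 ± 5.34). Trim16 (0.905 ± 0.188) lay below 10 CPM per kb, and Trim29, a gene of epithelia, had 14 counts in replicate 1 and 0 in the others. Exons of Trim14 overlap those of Nans on the opposite strand in GENCODE, and without a stated strand setting their reads cannot be told apart. The same holds for Trim46 with Krtcap2 and Trim41 with Rack1. On the same strand, Trim65 overlaps Trim47, Trim60 overlaps Trim61, Trim16 overlaps Fbxw10 and Trim17 overlaps Hist3h2a. For these pairs a strand setting would not separate reads from shared bases.

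Members with a membrane anchor, a MATH domain or an ARF domain were at middling levels. Trim59, held in the endoplasmic reticulum membrane, was read at 21.8, 18.2 and 21.5 CPM per kb (20.5 ± 1.98, edgeR adjusted p = 1.22e-04). Trim23, whose ARF domain is itself a GTPase, was read at 8.79, 8.79 and 8.15 CPM per kb and Trim37, which acts at centrosomes, at 8.13, 8.59 and 7.57, and neither was separated from 10 CPM per kb (adjusted p = 0.202 and 0.0854). Trim13 was read at 2.24, 1.26 and 1.16 CPM per kb, and its call above 1 CPM was lost without replicate 1 and without replicate 3.

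The members with NHL or filamin repeats all lay below 10 CPM per kb in edgeR's test, as did 37.7% of all tested genes. Trim32, a ligase mutated in a limb-girdle muscular dystrophy, led with 4.93, 7.14 and 5.54 CPM per kb, followed by Trim3 (3.40, 4.22 and 3.598) and Trim2 (1.27, 1.67 and 1.65), both best known from neurons. Trim71, a gene of pluripotent and germ cells, had 17, 2 and 14 counts. The call of Trim32 was lost without replicate 3, and that of Trim71 without replicate 2 or without replicate 3. Among the microtubule and sarcomere members, Trim36 (2.24, 2.07 and 2.00 CPM per kb) and Trim46 (1.22, 0.869 and 0.569) lay above 1 CPM, Trim46 not without replicate 1.

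**Figure D3:**
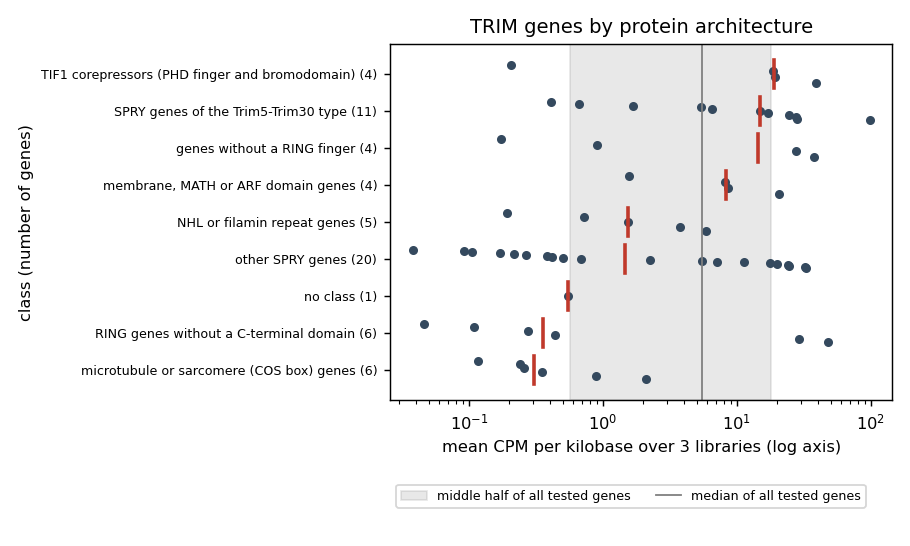
Mean level of all 61 TRIM genes over 3 libraries, in CPM per kb on a log axis, by protein architecture, with 1 point per gene, a red bar at each class median and a grey band for the interquartile range of all tested genes (0.564 to 17.8 CPM per kb). Every class except the single unclassed gene holds genes that differ several-fold, and the RING genes without a C-terminal domain split into Trim8 and Trim56 against 4 genes under 1 CPM per kb.

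The 24 members not called above 1 CPM include genes known from other tissues. Not all of them averaged under 1 CPM, as Trim6 averaged 2.53 CPM. Replicate 1 was the highest library for 20 of the 24. Of the 20 that could be tested it was so for 17, or 85%, the same share as among all 4867 tested genes not above 1 CPM (85%). Over all 57 members tested, 23, 25 and 9 were highest in replicates 1, 2 and 3, against 45.2%, 32.0% and 22.8% of all genes. The muscle ligase Trim63 had 18, 0 and 1 counts, and Trim55, its relative in the sarcomere, had 13, 0 and 0. The neuronal genes Trim9 and Trim67 had 24, 1 and 0 counts and 52, 0 and 11 counts. Trim50, a gene of gastric parietal cells, had 11, 0 and 0 counts. Where no read was counted, up to 3 remain possible from counting error, a ceiling of 0.317 CPM in replicate 1, 0.214 in replicate 2 and 0.228 in replicate 3.

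In replicate 1, 20 of these 24 genes exceeded the olfactory receptor mean of that library, and 12 and 14 did so in replicates 2 and 3. Across all members tested, 48 of 57 exceeded it in every library, 84.2% against 83.7% of all genes. Other marker lists were highest in replicate 1 as well. Of the 5 striated muscle markers, all 5 were highest there, and of these Acta1 had at most 0.106 CPM and Ckm at most 0.845, while Ttn reached 439 CPM, or 4.21 CPM per kb of its long transcript. Of the 5 neuron markers, 4 were highest there, with Snap25 at 0, 0 and 0.0759 CPM. Their part in the counts of Trim63, Trim55, Trim9 and Trim67 was not tested.

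**Figure D4:**
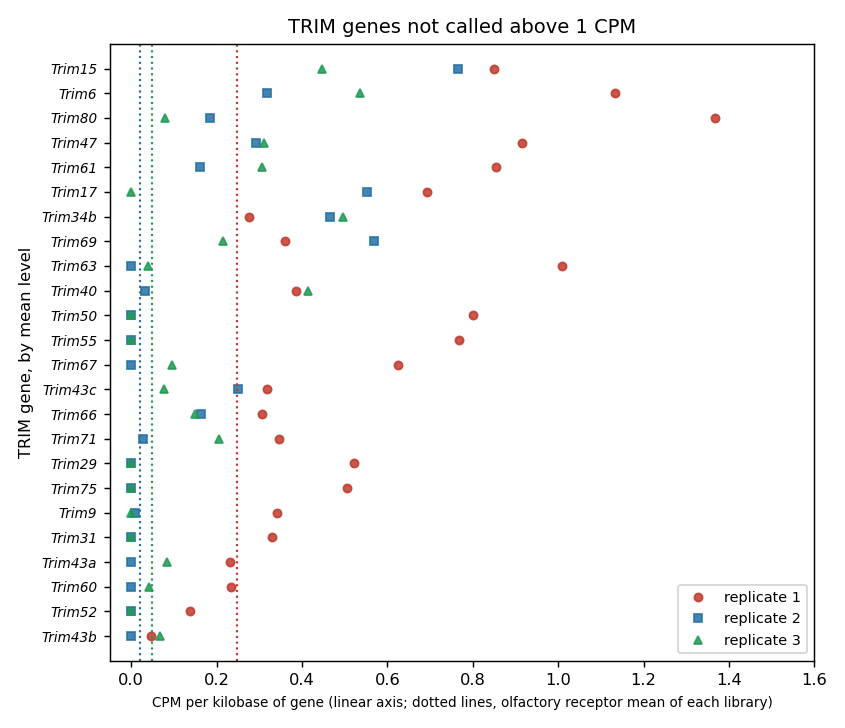
Levels of the 24 TRIM genes not called above 1 CPM, in CPM per kb on a linear axis, with 1 point per library and a dotted line in the same colour at the olfactory receptor mean of that library. Replicate 1 is the highest point for 20 of the 24 genes, and 11 genes have no count in replicate 2.

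The well-read members varied between libraries about as much as other genes. Among the 29 members with a mean of at least 10 CPM, the highest library stood 1.44 times above the lowest at the median, against 1.42 for all 8277 such genes. A ratio of at least 2 was seen for 2 of the 29 (6.90%) and for 13.0% of all. Trim23 was the most even, with 37.4, 37.4 and 34.7 CPM, followed by Trim36 (10.9, 10.1 and 9.72 CPM) and Trim33 (152, 172 and 169 CPM). The most uneven were Trim30c (6.97, 19.3 and 7.52 CPM), Trim65 (20.5, 39.7 and 44.0), Trim12a (101, 188 and 159), Trim39 (55.3, 95.7 and 77.7) and Trim34a (32.5, 54.7 and 45.3). Trim30c was high in replicate 2 alone, and the other 4 were low in replicate 1.

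Most well-read members shared this order. Replicate 2 was the highest library for 21 of the 29, against 48.7% of all such genes, and replicate 1 the lowest for 22, against 57.4%. The median member stood at -0.29, 0.21 and 0.03 log2 units from its own mean in replicates 1, 2 and 3, and the median of all such genes at -0.15, 0.08 and 0.03. Another scaling used totals without mitochondrial genes (mt-Rnr1 and mt-Rnr2 in the table) and without TMM factors. Both changes together raised replicate 1 by 0.34 log2 units and the others by 0.11 and 0.13. Replicate 1 was then lowest for 15 of the 29, against 34.6% of all such genes, and replicate 2 highest for 18, against 39.9%. T cell markers summed to 3019, 4057 and 3806 CPM, with 5 of the 8 highest in replicate 2, while Cd3d, Cd3g and Cd4 were lowest there. NK cell markers were also highest in replicate 2, and erythroid, macrophage and B cell markers were highest in replicate 1. All 5 neutrophil markers were highest in replicate 3, and monocyte markers summed to 602, 783 and 315 CPM. The part of these cells in the order of the TRIM genes was not tested.

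**Figure D5:**
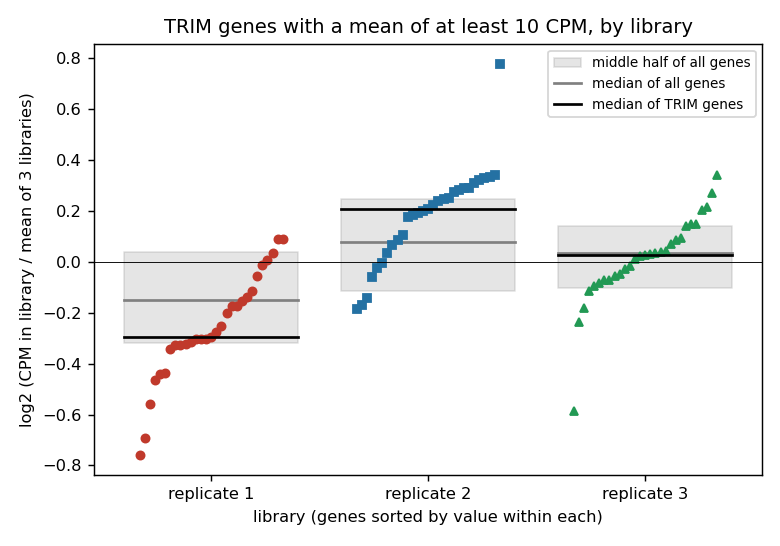
Log2 ratio of each library to the mean of 3 libraries for the 29 TRIM genes with a mean of at least 10 CPM, sorted within each library, with a black bar for their median and a grey box and bar for the interquartile range and median of all 8277 such genes. The TRIM median lies at -0.29 in replicate 1 and 0.21 in replicate 2, each farther from 0 than the median of all genes.

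Of the TRIM proteins whose genes carry other names, Pml, which forms nuclear bodies, was read at 18.1, 21.5 and 13.9 CPM per kb and lay above 10 CPM per kb. Mefv, the pyrin gene of myeloid cells, was read at 3.25, 6.22 and 2.45 CPM per kb and Mid1, which binds microtubules, at 1.47, 2.14 and 1.59. Mid2, a close relative of Mid1, was read at 0.411, 0.181 and 0.116 CPM per kb and was not called above 1 CPM.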

How the data were processed

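The authors deposited whole-number read counts per gene for 3 libraries, with gene lengths in bases. Per the submitters' processing notes, bcl2fastq, STAR 2.75, featureCounts and DESeq2 1.18.1 were used with mm10, with no role given for each. Per the labels' protocols, 8 ng of total RNA per library went into a stranded total RNA kit. The counts were used as deposited. All 61 members matched RefSeq genes of GRCm38.p6 by Entrez identifier.

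Tests covered the 15490 genes with 10 or more counts summed over the libraries. TMM factors and edgeR 4.0.16 were used, with an intercept alone and the reference level (1 CPM, or 10 CPM per kb) in the offsets. Because edgeR's function refuses a design of 1 column, its quasi-likelihood F test was written out, with its Poisson bound, and tested on simulated data. Against 1 CPM it called 15% of genes placed at 2 times that level, 82.5% at 4 times, and 0% at 0.25 or 0.5 times. Against 10 CPM per kb it called 92.5% at 2 times and 72.5% at 0.5 times. A gene not called above 1 CPM may therefore still lie above it. Tests were two-sided, with Benjamini-Hochberg adjustment over all genes tested and a threshold of 0.05. DESeq2 1.42.0, limma 3.58.1 in R 4.3.3, other scalings and filters, and leaving out each library served as alternatives. Values by library were set for all TIF1 members, the 12 highest, all of the Trim5 and Trim30 type, the 5 most and 3 least uneven, and the 2 highest and 2 lowest of each related list. Other genes given by library were chosen after their values were seen. Members and gene lists were chosen with earlier results of these data known. Proteins and the RING consensus were not analysed here.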

Additional observations from a re-analysis of the deposited data

How the results depend on the processing

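The counts of members above 1 CPM and above 10 CPM per kb stayed within 1.5 times their values of 37 and 20 under DESeq2 size factors, no filter, edgeR's filterByExpr, the DESeq2 Wald test, limma-voom and robust empirical Bayes. They ranged from 35 to 39 and from 19 to 21 when each library was left out. The count below 10 CPM per kb (24) was 15 with filterByExpr, which tests fewer genes, and 31 and 34 by DESeq2 and limma-voom. It ranged from 9 to 23 when each library was left out, with the 9 reached without replicate 3, where all 9 were among the 24. The cause of the other differences was not tested. Without replicate 1 the mean CPM of 17 of the 24 members not above 1 CPM moved by over 1.5 times, such as Trim9 from 0.869 to 0.0357 and Trim67 from 2.11 to 0.418. Of the 37 above 1 CPM, 1 (Trim30c) moved by as much, without replicate 2. Totals without mitochondrial genes, used without TMM factors, moved 9 means by more than 1 SD. Over all genes, the number below 10 CPM per kb was 5834, and 2339 without replicate 3, 3879 with filterByExpr. No paired analysis was possible because the libraries form 1 group. The 3 libraries and the low counts limit what can be said of genes near background, such as Trim29, Trim50, Trim55 and Trim75, which had no count in 2 libraries and were called below 10 CPM per kb by DESeq2 and limma-voom but not by edgeR.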

Other observations

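The order of members depends on whether gene length is taken into account. By CPM alone Trim33 was the highest member, with 164 ± 11.1 CPM, and per kilobase of its 8868 bases it ranked 17th. Trim12a, with 1525 bases, ranked 4th by CPM and first per kilobase, and Trim14, with 1432 bases, ranked 19th and 4th. The length used is the one in the deposited table. The GENCODE transcripts of Trim12a and Trim14 hold 5965 and 4487 stretches of 75 bases, so both ranks per kilobase rest on those short lengths.

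The 3 numbered TRIM genes outside the selection behaved unlike each other. Trim30a, at 144, 209 and 210.1 CPM across the replicates in order, was lowest in replicate 1 as most well-read members were. Trim10 was read at 113, 2.42 and 9.80 CPM and Trim58 at 17.5, 0.0713 and 1.44 CPM, both highest in replicate 1, where erythroid markers peaked. Among the 61 members, Trim80, with 25, 5 and 2 counts, had the largest ratio of highest to lowest library (17.4) of those with counts in every library. Trim7, named after its values were seen, fell short of a mean of 10 CPM and was read at 11.7, 3.85 and 6.99 CPM.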
